A study of Homo sapiens with 14 samples.

Results

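The loci of NKX2-2, KLF15 and TCF4, transcription factor genes described as parts of the core regulatory circuit of Ewing sarcoma cells, were examined in CUT&RUN peak lists from TC-32 cells. The members were chosen by name, and they are 3 of the 19970 protein-coding genes on the autosomes and X. In GENCODE on hg38 all 3 lie on the minus strand: NKX2-2 (ENSG00000125820) at chr20:21511017-21514064, KLF15 (ENSG00000163884) at chr3:126342635-126357408 and TCF4 (ENSG00000196628) at chr18:55222185-55664787. Each locus was taken as the gene body with 10, 50 and 200 kb either side. TC-32, an Ewing sarcoma cell line, expresses the EWSR1::FLI1 fusion. CUT&RUN sequences the DNA that an enzyme tethered to an antibody releases next to its target. The 14 libraries came from untreated cells labelled as wild type, in 2 sets named A and B in the titles, with no label saying how they differ. FLI1 was mapped in set A (2 replicates) and in set B (2 replicates). H3K27ac, a mark of active promoters and enhancers, was mapped in set A (2 replicates), and the repressive marks H3K9me3 and H3K27me3 in set B (2 replicates each). Peak calling used the IgG controls of each set, 2 libraries in A and 2 in B. Nothing states that replicates were separate cultures, so their spread may be technical. An antibody to FLI1 cannot by itself tell the fusion from native FLI1. RNA was not measured, so whether the genes are expressed was not assessed here.

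The fusion joins a part of EWSR1 that recruits chromatin regulators to the DNA-binding ETS domain of FLI1. ETS factors bind single GGAA cores, and EWSR1::FLI1 is also known to bind microsatellites of consecutive GGAA units (TTCC on the other strand), many of them far from genes. NKX2-2 encodes a homeodomain factor of neural tube and pancreatic islet development that is used as a diagnostic marker of Ewing sarcoma. KLF15 encodes a Kruppel-like zinc finger factor known from metabolic regulation. TCF4 encodes a class I basic helix-loop-helix E protein, not to be confused with TCF7L2 of the WNT pathway, which shares the alias.

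FLI1 lists held between 29339 and 40590 regions per library. For H3K27ac the numbers were 10219 and 17366, for H3K9me3 36687 and 21770, and for H3K27me3 21461 and 16667. Of 55109 distinct FLI1 regions, 16163 were in all 4 libraries. The deposited fold is the authors' ratio of a region's signal to its IgG control. Since it depends on depth, it is given also as a percentile within its own list, where 50 is the middle region of that library. Read totals were not used here, so the depth behind a value is unknown and no counting interval is given.

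Each locus held a FLI1 region in all 4 libraries over a long GGAA or TTCC microsatellite, and 16.8% of protein-coding genes had a region with at least 4 units near a summit within 200 kb. None lay at the gene's own start. The 2 at NKX2-2 lay 41.6 and 62.0 kb upstream, that of KLF15 lay 67.1 kb downstream of its start and beyond its end, and that of TCF4 lay in an intron 302.2 kb into the gene. The sequences at NKX2-2 and KLF15 are shown because these regions, with that of TCF4, had the highest fold of each locus when percentiles were averaged over the libraries. Letters are the hg38 reference, read with 40 bases on each side of the run, and every GGAA or TTCC is in capitals. The lengths of the repeats in TC-32 itself were not analysed here.
NKX2-2 9-unit run, chr20:21555788-21555903, plus strand: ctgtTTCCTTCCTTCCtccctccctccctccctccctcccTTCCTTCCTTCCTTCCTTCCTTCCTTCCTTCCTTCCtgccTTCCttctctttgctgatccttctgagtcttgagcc
NKX2-2 20-unit run, chr20:21576244-21576403, plus strand: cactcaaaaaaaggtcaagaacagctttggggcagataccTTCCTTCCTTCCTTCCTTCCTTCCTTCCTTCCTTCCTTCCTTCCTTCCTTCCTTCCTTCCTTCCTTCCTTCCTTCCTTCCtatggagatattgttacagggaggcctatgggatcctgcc
KLF15 10-unit run, chr3:126290469-126290588, plus strand: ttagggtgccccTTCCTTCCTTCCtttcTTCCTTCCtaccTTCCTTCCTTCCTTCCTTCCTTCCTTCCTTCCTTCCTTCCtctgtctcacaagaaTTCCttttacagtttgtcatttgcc
The NKX2-2 upstream runs have 9 and 20 consecutive TTCC units, and the first also has 3 units and a stretch of CTCC just before it. The KLF15 run has 10 TTCC units. At TCF4, 2 neighbouring runs form a single microsatellite. No exon of GENCODE release 44 covers any of these runs. That 62.2 kb upstream of NKX2-2 lies in an intron of the lncRNA gene LINC01727, and that near KLF15 lies inside the lncRNA genes ENSG00000250934 and ENSG00000251448.

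Shorter runs at the same loci lay outside the FLI1 regions of every library, as did most runs of that length over the autosomes and X. Within 200 kb of the 3 genes the reference holds 9 runs of at least 4 units, 3 at each locus. The 5 runs of 9 to 20 units were covered in all 4 libraries, and the 4 runs of 4 or 5 units in none. Over the autosomes and X, 21.5% of runs of 9 to 20 units (807 of 3757) and 3.49% of runs of 4 or 5 units (358 of 10244) were covered in all 4 libraries. Of all runs of 4 or 5 units, 91.7% (9396 of 10244) were covered in none, against 63.3% of runs of 9 to 20 units. The 4 uncovered short runs are thus the usual outcome. The 5 long runs make up only 4 microsatellites, and no test was made of their share. The uncovered runs of KLF15 are shown because they are as rich in the core letters as covered runs, while their longest unbroken run is short. Both also lie inside H3K9me3 regions of both replicates, chr3:126210871-126214707 in replicate 1 and 126211580-126214129 in replicate 2. Whether run length or this mark has a part in the missing FLI1 regions was not tested.
KLF15 uncovered run of 5 units, chr3:126212145-126212244, plus strand: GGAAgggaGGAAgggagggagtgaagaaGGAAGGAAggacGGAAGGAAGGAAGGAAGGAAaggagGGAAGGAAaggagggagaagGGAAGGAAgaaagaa
KLF15 uncovered run of 4 units, chr3:126212437-126212532, plus strand: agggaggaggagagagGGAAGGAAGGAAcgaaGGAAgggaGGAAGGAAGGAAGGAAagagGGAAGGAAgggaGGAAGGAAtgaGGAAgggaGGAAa
The first has 13 GGAA or TTCC in 100 bases with a longest run of 5, and the second 14 in 96 bases with a longest run of 4. The covered microsatellite 41.8 kb upstream of NKX2-2 has 13 in 116 bases with a longest run of 9. Among all runs with 12 to 16 such cores in the run and its flanks, 6.67% of runs of 4 or 5 units (143 of 2145) were covered in all 4 libraries. The share was 11.3% for runs of 6 to 8 units (81 of 719) and 20.4% for runs of 9 to 20 units (386 of 1888). This comparison was added after the sequences had been seen.

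**Figure D1:**
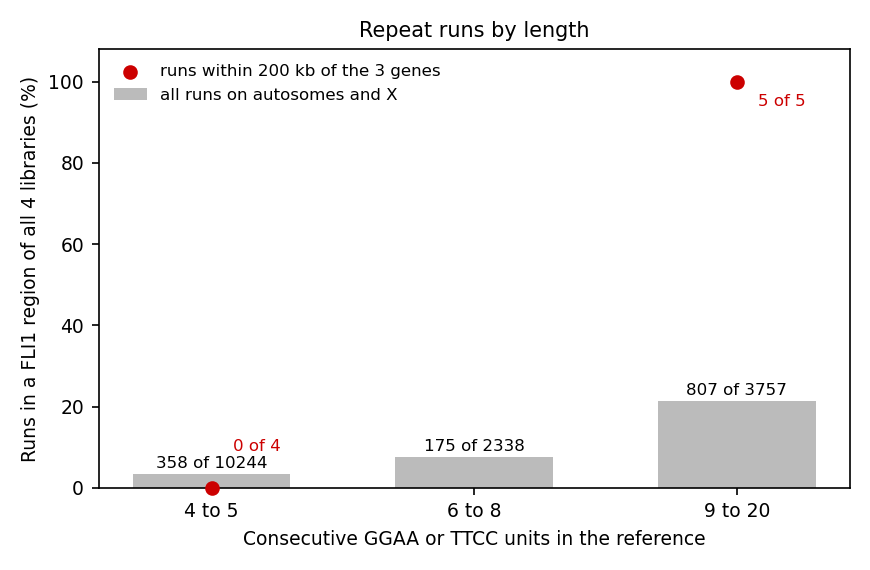
Bars give the percent of GGAA or TTCC runs on the autosomes and X that lie in a FLI1 region of all 4 libraries, by run length in units; red points give the same for runs within 200 kb of the 3 genes. All 5 long runs of the loci were covered and none of the 4 short ones, against 21.5% and 3.49% of all runs. Of all runs of 4 or 5 units, 91.7% were covered in no library.

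NKX2-2 had 5 FLI1 regions in all 4 libraries within 50 kb, against 4 at TCF4 and 2 at KLF15. Within 10 kb of NKX2-2, there were 9 and 10 regions in the set A lists and 7 and 5 in the set B lists. Of these, 3 distinct regions were in all 4 libraries, and 53.1% of protein-coding genes had at least 1 such region, 8.72% at least 3. Within 50 kb, 5 regions were in all 4 libraries (70.0% of genes had at least 1), and within 200 kb 6 (88.7%). By its count within 50 kb the gene stood at the 91.9th percentile of protein-coding genes.

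The NKX2-2 region 41.6 kb upstream, chr20:21553077-21558833, had folds of 64.0 and 88.9 in set A, against 56.9 and 25.7 in set B. These were at the 98.8, 99.3, 99.6 and 96.1 percentiles of their lists. It includes an exon of LINC01727, and it is the sole region of the locus that overlapped H3K27ac in both replicates. The region 62.0 kb upstream, chr20:21568506-21578074, had folds of 39.2 and 77.3 in set A, against 29.9 and 28.3 in set B. Its percentiles were 97.1, 99.1, 96.5 and 97.1. Both regions stood at or above the 96.1 percentile in every library, taking the most significant peak of the library in the region. In set B replicate 1 the region 62.0 kb upstream also held weaker peaks, at percentiles down to 37.3. A region in all 4 libraries at a mean percentile of 95 or more lay within 200 kb of 27.6% of genes, and NKX2-2 and KLF15 had such regions while TCF4 had none.

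At the NKX2-2 start, chr20:21513846-21516409, the folds were lower, at 6.48 and 10.2 in set A, against 8.49 and 11.1 in set B. The percentiles were 44.5, 75.8, 53.8 and 72.3, and the sets overlapped. The summits fell in 2 places, at 21515194 and 21515192 in replicate 1 of sets A and B and at 21514337 and 21514290 in replicate 2. The 3 other regions of the locus also ranked below both microsatellite regions in every library. That 7.09 kb upstream had percentiles of 62.7 and 56.2 in set A, against 52.4 and 46.9 in set B. The region 50.2 kb upstream ranked higher in set B (80.3 and 85.1) than in set A (15.9 and 44.5), and the region 7.38 kb downstream higher in set A (69.6 and 65.1) than in set B (5.70 and 1.81).

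KLF15 stood at the 62.5th percentile of genes by its FLI1 regions in all 4 libraries within 10 kb. Its gene body had none in any library, and each library had exactly 1 within 10 kb, at the start. Within 50 kb there were 3 and 2 regions in the set A lists and 2 in each set B list. Of these 2 were in all 4 libraries, and the second of them was the microsatellite region, which the window only touches at its edge. Within 200 kb, 7 regions were in all 4. By its count within 50 kb the gene stood at the 62.7th percentile.

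The KLF15 start region, chr3:126357473-126358489, lies just upstream of the gene. Its folds were 9.85 and 9.23 in set A, against 22.9 and 16 in set B, at percentiles of 72.0 and 71.8 against 93.2 and 87.4. Both libraries of set B ranked it above both of set A. A FLI1 region in all 4 libraries lay within 1 kb of the start of 33.8% of genes. The longest run of GGAA or TTCC units in the whole region was 2. The window around the summit of set B replicate 1 is shown.
KLF15 start window, chr3:126357560-126357759, plus strand: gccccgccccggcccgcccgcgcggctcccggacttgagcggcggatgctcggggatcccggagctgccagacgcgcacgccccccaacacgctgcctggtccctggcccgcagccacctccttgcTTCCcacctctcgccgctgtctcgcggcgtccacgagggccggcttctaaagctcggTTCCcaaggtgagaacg
It has 2 single TTCC cores, 73.5% GC and 1 match to the GC box letters CCCCGCCC or GGGCGGGG, which 10.7% of windows of 200 bases around the same library's summit hold over all regions in the 4 libraries. At least 1 GGAA or TTCC core was in 91.7% of those windows, with a median of 3. A run of 4 or more units was in 1.27% of them, but such windows are too short to show most repeats. Where a run of at least 9 units lay within 1 kb, the median distance from summit to run was 195 to 215 bp by library. Within 250 bp of a summit in any library, 7.58% of these regions had a run of 4 or more units. The GC box match is of letters only.

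The microsatellite region of KLF15, chr3:126286636-126293098, had folds of 59.2 and 57.7 in set A, against 40.7 and 17.2 in set B. The percentiles were 98.7, 98.6, 98.5 and 89.4. The lowest was again in set B replicate 2, the smallest FLI1 list. A further region 148.5 kb downstream, at an exon of ALDH1L1-AS2, an antisense lncRNA gene, had percentiles of 54.3 and 84.2 in set A, against 91.2 and 95.2 in set B. Its longest run was 2 units. The neighbouring gene ZXDC, a zinc finger gene, had a region at its own start, 119.0 kb upstream of KLF15, with percentiles of 91.3 and 93.3 in set A, against 70.1 and 31.0 in set B. The distances do not show which gene, if any, a region acts on.

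TCF4 is a long gene of 442603 bp, and all 4 of its regions in all 4 libraries lay inside it. Within 10 kb there were 12 and 13 regions in the set A lists and 8 and 7 in the set B lists. Its count within 50 kb stood at the 86.2th percentile of genes, and per kb of window at the 43.7th. In GENCODE its 64 coding transcripts start at 63 positions, which fall into 16 groups. FLI1 regions in all 4 libraries lay within 1 kb of 2 of these groups, and regions of any library at 7. The first start, at the gene's outer end, had none.

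The TCF4 microsatellite region, chr18:55361676-55363785, had folds of 31.5 and 33.7 in set A against 11.4 and 10.6 in set B. Its percentiles were 95.9 and 96.6 in set A, against 71.7 and 69.7 in set B, so that the sets did not overlap. The region at the alternative starts near 55401757, chr18:55401464-55402361, had folds of 9.03 and 6.0 in set A, against 11.9 and 6.57 in set B. Its percentiles of 68.0, 42.8, 73.3 and 30.8 overlapped between the sets. The stretch between exons that holds its summit in set B replicate 1 is shown, and it has a single core. Exons on either side limit it to 80 bases. The summits of set A, at 55401869 and 55402183, and of set B replicate 2, at 55401897, lie outside it.
TCF4 alternative start stretch, chr18:55401778-55401857, plus strand: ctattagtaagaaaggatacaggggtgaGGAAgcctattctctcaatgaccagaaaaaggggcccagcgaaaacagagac
A region at another group of starts, chr18:55321675-55322568, was among the weaker, with percentiles of 34.3 and 7.01 in set A, against 18.2 and 28.7 in set B. An intronic region at chr18:55337735-55340191 had percentiles of 80.3 and 68.3 against 46.7 and 16.3. When peaks of different libraries had to overlap by 50% of both, 0 of the 4 TCF4 regions remained in all 4 libraries, against 3 of 6 at NKX2-2.

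**Figure D2:**
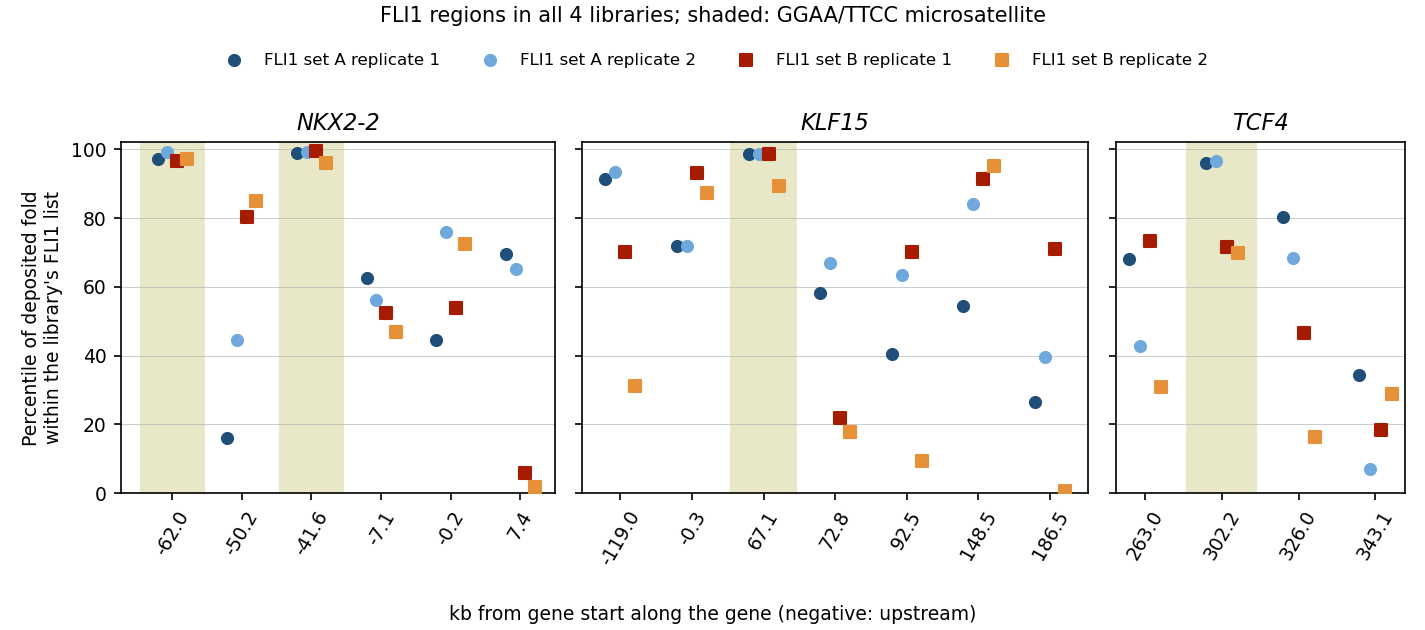
Percentile of the deposited fold within each library's own FLI1 list (vertical axis) for the 17 regions in all 4 libraries within 200 kb, ordered by distance from the gene start in kb; circles are set A, squares set B, and shading marks the microsatellite regions. The 3 shaded regions at NKX2-2 and KLF15 sit near the top in every library, while that at TCF4 is lower in set B.

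Over the 3 loci, 17 regions were in all 4 libraries within 200 kb, and 4 of them were microsatellite regions. Averaged over the libraries, their percentiles ran from 83.5 to 98.5, and those of the 13 others from 22 to 81.2 with a median of 53.7. Over all regions in 4 libraries the medians were 88.6 with a run and 66.2 without. The microsatellite regions were also wider, from 2.11 to 9.57 kb against 0.894 to 2.56 kb, and over all regions the median widths were 3.29 and 1.12 kb. These are widths of regions joined over libraries, and a library can hold several separate peaks in such a region. In set B replicate 1 the most significant peak of the widest region, at NKX2-2, spanned only 21575203-21576804. Counting every region of a library within 200 kb, those with at least 4 whole units within 250 bp of the summit ranked higher by 56.5 and 56.3 percentile points in set A, and by 50.6 and 52.9 in set B. These differences of medians averaged 54.1 ± 2.87 (SD, n = 4), against 32.2 ± 6.79 (SD, n = 4) over all regions of the lists. Each difference rests on 3 repeat regions, and these were not the same in the sets: by this distance the NKX2-2 9-unit region counted as a repeat region only in set A and the KLF15 region only in set B. In the other set each stood among the other regions, whose highest percentiles were 98.7 and 98.6 in set A, against 99.6 and 96.1 in set B. The number of other regions at or above the lowest repeat region was 1 and 1 in set A, against 8 and 9 in set B. The exact two-sided sign-flip permutation test over 4 libraries cannot go below p = 0.125, which was its value, so it makes no call.

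No summit lay inside a microsatellite at these loci. At KLF15 the summits lay 237 and 244 bp from the run in set A, against 226 and 145 bp in set B, all on the side of lower coordinates. At TCF4 they lay 171, 178, 112 and 181 bp away, all on the side of higher coordinates. At the 20-unit run of NKX2-2, the summits of set A lay 228 and 182 bp below the run and those of set B 198 and 200 bp above it. At the 9-unit run they lay 226 and 194 bp below it in set A, against 588 and 586 bp below it in set B. Over all regions in 4 libraries with a run of at least 9 units within 1 kb of the summit, the median distance was between 195 and 215 bp by library, and at most 10 summits of a library lay inside the run. Whether the mapping of reads to the repeat has a part in this was not tested.

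**Figure D3:**
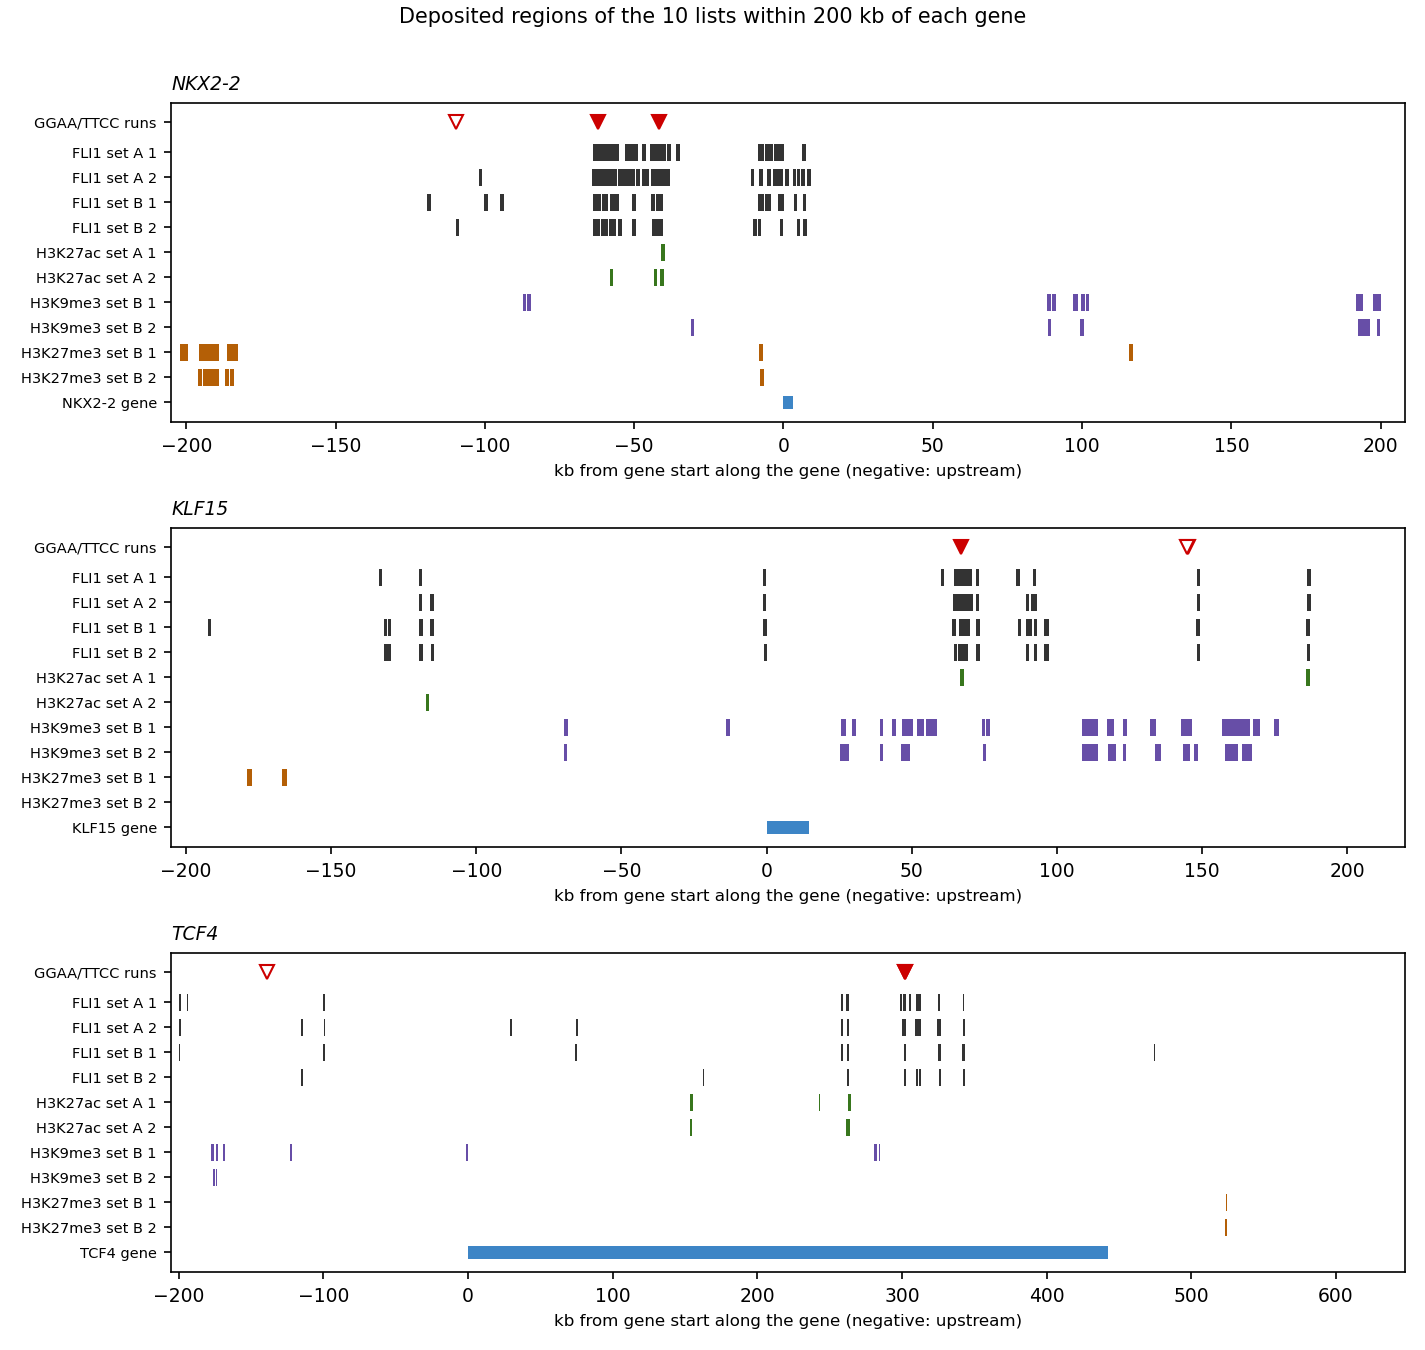
Regions of the 10 lists (rows) against the distance from the gene start in kb, negative upstream, within 200 kb of each gene; short regions are widened to be visible, blue bars are the genes, filled triangles are runs covered by FLI1 in all 4 libraries and open triangles runs covered in none. FLI1 regions gather at the filled triangles, and the H3K27ac replicates hold 1 and 3 regions at NKX2-2, 2 and 1 at KLF15 and 5 and 3 at TCF4.

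H3K27ac regions were few in number around the 3 genes, and none had it within 1 kb of its gene start in both replicates. Of all protein-coding genes 10.2% did, so that most genes share its absence, and a missing region says only that none was called. Within 10 kb of NKX2-2 neither replicate had a region (23.8% of genes had it in both), and within 50 kb they had 1 and 2. The base pairs in both were chr20:21554506-21554700, 40.4 kb upstream, with folds of 5.30 and 6.70, inside the 9-unit microsatellite region. A second H3K27ac region at 21556499-21557331, on the other side of the repeat, was in replicate 2 alone, with a fold of 5.39. Within 50 kb, 38.0% of genes had H3K27ac in both replicates.

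KLF15 had no H3K27ac region within 50 kb in either replicate. Within 200 kb the replicates had 2 and 1, and none was shared, where 63.4% of genes had H3K27ac in both replicates. Replicate 1 had a region of 126290050-126290249 beside its microsatellite, with a fold of 4.74. The nearest region in both replicates lay 1021.9 kb from the start, and 88.3% of protein-coding genes had one nearer. The median gene had one at 126.7 kb. By the same measure, NKX2-2 at 40.4 kb was closer than the median gene, with 28.7% of genes nearer, and TCF4 at 263.2 kb was farther, with 66.2% nearer.

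TCF4 had 5 and 3 H3K27ac regions, all inside the gene, and 2 stretches were in both replicates. Both lie within 1 kb of the alternative starts around 55401757. The nearer to the gene start was chr18:55401243-55401539, 263.2 kb from it, with folds of 3.99 and 6.54. Replicate 2 had there a single region of 55400665-55402245, which takes in the summits of the FLI1 region. Another TCF4 start, at 55510772, had H3K27ac regions within 1 kb in each replicate, 2 and 1, but these shared no base. The closest were 55510801-55511000 in replicate 1 and 55510599-55510798 in replicate 2. No H3K27ac region of either replicate touched the intronic microsatellite region. Among the 17 FLI1 regions, 2 overlapped H3K27ac in both replicates, against 12.4% of all regions in 4 libraries and 12.7% of those with a run. At NKX2-2 the FLI1 peaks of 4 libraries reached the shared H3K27ac stretch, but at TCF4 that of 1 library, set A replicate 1. No FLI1 summit lay inside the TCF4 stretch. The H3K27ac folds there stood at the 8.57 and 90.5 percentiles of their lists. FLI1 and H3K27ac of set A share their IgG controls.

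The repressive marks differed between the loci. KLF15 lay among H3K9me3 regions: within 50 kb the replicates had 8 and 3, covering 11.9% and 5.90% of the window, and within 200 kb 19 and 13. Within 10 kb of KLF15 there was none. H3K9me3 in both replicates lay within 10, 50 and 200 kb of 24.5%, 43.1% and 75.6% of genes, and within 1 kb of the start of 1.37%. NKX2-2 had 0 and 1 H3K9me3 regions within 50 kb, and TCF4 3 and 0. H3K27me3, the Polycomb mark of silenced developmental genes, was at NKX2-2 in 1 place within 50 kb, chr20:21521052-21522199 in replicate 1 and 21521154-21521360 in replicate 2, with folds of 4.41 and 4.73. That place coincides with the FLI1 region 7.09 kb upstream. RefSeq on GRCh38 gives NKX2-2 a further start at 21522689, and the FLI1 region lies within 1 kb of it, as does the H3K27me3 region of replicate 1 but not that of replicate 2. KLF15 and TCF4 had no H3K27me3 within 50 kb in either replicate, and 28.3% of genes had it in both. Within 10 kb 17.0% of genes had it, within 200 kb 51.9%, and within 1 kb of the start 9.36%, where none of the 3 genes had it in both replicates.

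**Figure D4:**
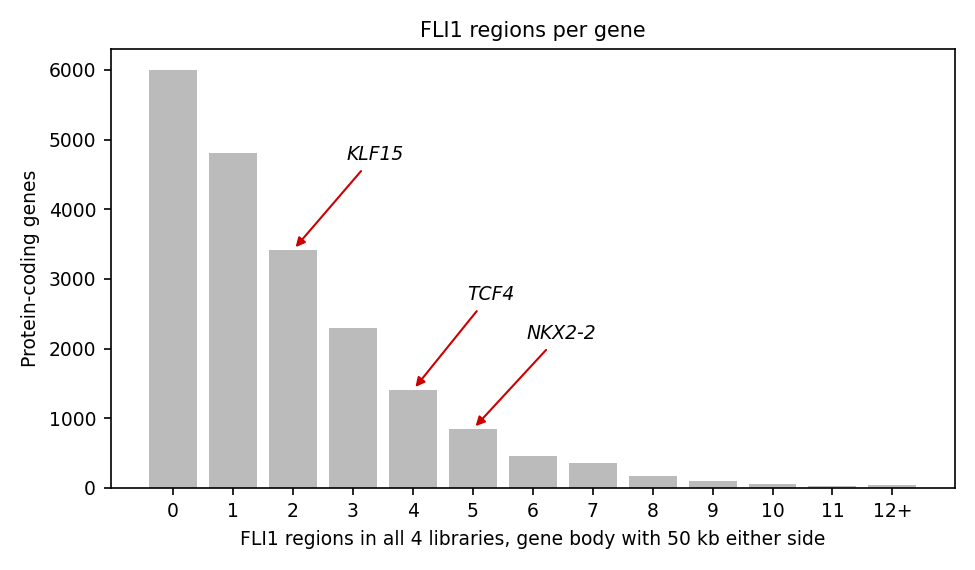
Number of protein-coding genes (vertical axis) by the number of FLI1 regions in all 4 libraries within the gene body and 50 kb either side (horizontal axis). KLF15 with 2, TCF4 with 4 and NKX2-2 with 5 lie above the median of 1, at the 62.7th, 86.2th and 91.9th percentiles.

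Related genes were set beside the members as a description. Of the 7 NK2 homeobox genes, only NKX2-2 had a FLI1 region in all 4 libraries within 10 kb, which 53.1% of all protein-coding genes had. H3K27me3 in both replicates lay within 50 kb of 6 of the 7 (28.3% of all genes) and at the start of 3 (9.36%). NKX2-2 was among the 6 through 1 shared stretch of 0.207 kb, and it was not among the 3. The 200 kb windows of NKX2-2 and its neighbour NKX2-4 overlap, and that of NKX2-4 takes in both NKX2-2 microsatellite regions. Of the 18 Kruppel-like factor genes, 11 had a FLI1 region in all 4 libraries within 10 kb, close to the share over all genes. KLF16 and KLF12 had 4 each within 10 kb, and KLF16 had 8 within 50 kb, whereas KLF4 and KLF5, known for roles in stem and epithelial cells, had 0 in either window. KLF12 is a much longer gene: per kb of the 50 kb window it stood at the 43.3th percentile of genes, and KLF16 at the 99.2th. All 7 genes of E proteins and their ID inhibitors had such a region within 10 kb. TCF12, a further E protein, had 7 within 10 kb, and ID2 and ID3, which hold E proteins off DNA, had 3 each. TCF12 is also a long gene. Per kb of the 50 kb window it stood at the 77.7th percentile, below ID2 at the 85.5th and ID3 at the 96.3th. All 6 genes of the Groucho corepressor family, some of whose products bind NKX2-2, had at least 1 within 10 kb, where 53.1% of all protein-coding genes did. TLE6, TLE2 and TLE5 are neighbours on chromosome 19 whose windows overlap in turn, so they can share regions. Microsatellite regions within 200 kb were found for 4 NK2 genes, 3 Kruppel-like genes, 2 E protein or ID genes and 1 Groucho gene, where 16.8% of all protein-coding genes had one. The NK2 genes counted include both NKX2-2 and NKX2-4, so the same regions enter for both. NKX2-2 and KLF15 had one within 50 kb, KLF15 only by the window's edge, and TCF4 had one inside the gene, where 6.01% of genes had one within 50 kb.

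The genes most like each member were found from the share of the 50 kb window that each of the 10 lists covers. EPN1 was nearest to NKX2-2, with a mean difference of 5.56 percentile points over the 10 lists, followed by SEC14L2 and GPR137. EIF5A2 was nearest to KLF15 at 1.57 points, followed by COPG2 and ZNF583, and all 4 genes had no cover in the H3K27ac and H3K27me3 lists. ATXN7L3B was nearest to TCF4 at 4.76 points, followed by BUB1B-PAK6 and C16orf87.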

How the data were processed

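The data are 10 peak lists from CUT&RUN of TC-32 cells, each called for 1 library with the matching IgG library (equal set and number) as its control, per the file names. The submitters' processing notes name cutadapt 4.4, Bowtie2, Picard 2.17.11, MACS2 2.1.1 and GRCh38/hg38, without their roles. The deposited fold is a ratio to the control, and the deposited significance is a −log10 p-value and −log10 q-value, all given by the authors' caller; the lowest −log10 q-value was 2.00. Replicates were not pooled.

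Overlapping rows of a list were merged, keeping the most significant. FLI1 regions were joined over libraries by at least 1 shared base, and a mark's shared regions are the bases in both replicates. The fold, percentile and summit of a joined region in a library are those of its most significant peak there. Genes came from GENCODE release 44 on hg38 and sequences from the same build. The sequences of the TCF4 microsatellite and the NKX2-2 start are not reported here. A repeat was a run of GGAA or TTCC with 4 or more units. Named in full were, for each gene, the 3 regions highest in fold percentile averaged over libraries, the region nearest the gene start and every region with a run within 250 bp of a summit; other regions are given by range or as neighbours. The related gene lists, the NK2, Kruppel-like, E protein and ID, and Groucho genes, are described by counts. The genes and lists were chosen with earlier results of these data known. Counting, run finding and the sign-flip test were tested on simulated data. Alternatives covered windows, overlap, peak strength, repeat rules and leaving out each library. The IgG libraries and reads were not analysed here. Python 3.11.15, numpy 2.4.6, matplotlib 3.10.9, pysam 0.24.0 and samtools 1.23.1 were used.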

Additional observations from a re-analysis of the deposited data

How the results depend on the processing

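Of 105 alternatives, 69 kept their result within the replicate spread or 1.5 times, 36 moved it and 0 reversed it. FLI1 regions in all 4 libraries within 200 kb were 6, 7 and 4 (NKX2-2, KLF15, TCF4). With the more significant 50% of each list they were 3, 4 and 1, with 50% reciprocal overlap 3 at NKX2-2 and 0 at TCF4, with 50 kb 2 at KLF15, and with 10 kb 3 and 1 at NKX2-2 and KLF15. The gene percentiles of 91.9, 62.7 and 86.2 became 78.7, 78.7 and 58.6 with the more significant 50% and 67.0, 73.4 and 50.5 with 200 kb. That of TCF4 was 97.2 with 10 kb and 43.7 per kb, and from 83.8 to 94.6 without 1 library, highest without FLI1 set B replicate 1. H3K27ac within 50 kb, at 1 and 2 regions for NKX2-2 and TCF4, was 2 and 6 in either replicate, 0 with 10 kb at NKX2-2 and 1 with the more significant 50% at TCF4. Without 1 replicate it was 1 to 2 at NKX2-2, highest without replicate 1, and 3 to 5 at TCF4, highest without replicate 2. H3K27me3 at NKX2-2, 0.201% of the 50 kb window, was 1.11% in either replicate, 0.898% with 10 kb, 1.84% with 200 kb, and 0.201% to 1.11% without 1 replicate, highest without replicate 2. At TCF4 it was 0.0189% with 200 kb. H3K9me3 at KLF15, 4.68%, was 13.2% in either replicate, 0% with 10 kb, and 5.90% to 11.9% without 1 replicate, highest without replicate 2. At NKX2-2, 0% became 0.338% in either replicate, 0.892% with 200 kb, and 0% to 0.338% without 1 replicate. At TCF4, 0% became 0.616% in either replicate, and 0% to 0.616% without 1 replicate. The causes were not tested. The repeat difference kept its direction under each alternative that gave a value, and was 53.3 to 55.3 points without 1 library. With 50 kb either side it was smaller and more spread, at 39.7 ± 16.9 points (SD), against 54.1 ± 2.87 with 200 kb. Taking runs within 500 bp of the summit gave 51.2 ± 9.80 (SD). Asking for a run within 100 bp of the summit gave no value, since at least 1 library had no run that close. No paired analysis was possible because sets A and B were set side by side as values with no test, and the repeat difference is already taken within each library. Depth limits what a missing region means: it was not detected in that list, and the signal below the threshold is unknown.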
